A study of Mus musculus with 2 samples.

Results

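The 34 genes described here were chosen by name among the 32285 gene rows of a single-cell RNA sequencing (scRNA-seq) count matrix of mouse pancreatic tumors. They comprise the enzymes and transporters of glycolysis together with well known targets of the hypoxia-inducible factors (HIFs). By role, 3 carry glucose or lactate across the plasma membrane, 15 are glycolytic enzymes, 2 set the flux through the pathway, 3 sense oxygen or act on chromatin, 3 act at mitochondria, and 8 are other HIF targets. All 34 had a row in the matrix, and Aldoa had 2 rows that were summed. The question was how these genes were distributed over tumor and host cells, how they varied among single tumor cells, and how their levels compared between a control tumor library and a library made 3 days after insufficient irreversible electroporation (iIRE).

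The tumors were grown in the pancreas of C57BL/6 mice from KPC cells, a line (FC1199) derived from genetically engineered mice with Trp53 R172H/+ and Pdx1-Cre among their alleles, so that all tumor cells of both groups descend from a single cultured line. In the iIRE group, part of a tumor of 7 to 9 mm was ablated through needles 5 mm apart with 99 pulses at 1 Hz. By the methods, the control had the same needles inserted without pulses, although elsewhere the study calls these tumors untreated. By the methods, the hosts were male and 5 to 7 weeks old. Each group was represented by 1 library. The barcodes were assigned to the libraries by the number they end in, which the labels do not state outright, and an exchange of the endings would reverse every direction between the libraries. In addition, the number of tumors in a library was not stated in the sources used here. No difference between the libraries therefore has a replicate check, and no p-value is given. Every interval printed is a 95% interval of the counting error alone.

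Glycolysis converts glucose to pyruvate in the cytosol, and cells that are short of oxygen reduce the pyruvate to lactate and export it. The HIF alpha subunits are hydroxylated by the prolyl hydroxylases of the Egln family when oxygen is present, and are then degraded. When oxygen falls they persist, pair with ARNT, and bind hypoxia response elements with the core ACGTG or GCGTG near genes for glucose uptake, glycolysis, lactate export, mitophagy and collagen modification. Pancreatic ductal adenocarcinoma is known for its dense stroma and sparse perfusion.

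Promoters of 30 of the 34 genes, 42 in all, were matched in the RefSeq promoter table for mm10 (GRCm38.p6). Ero1l, Slc2a3, Ndrg1 and Bnip3l had no entry. Each window held 250 bases before and 50 bases after a start site. The core motifs ACGTG and GCGTG were searched on both strands. ACGTG on opposite strands also makes up CACGTG, which is the E-box of other factors, so that CACGTG counts as 2 matches. At least 1 of the motifs stood in 80.95% of the 42 promoters and in 43.77% of all 32851 promoters in the table. At least 3 stood in 28.57% and 8.931%, respectively. The median GC content was 64.83% in the promoters of the 34 genes and 52.67% in all promoters, and its part in the motif shares was not tested. A match is a run of letters and not a measured binding site. Shown here, 5′ to 3′ on the strand of the gene, are the 250 bases before the start site of 3 genes that were high in the same tumor cells (Ldha, Bnip3 and Ankrd37) and of the glycolytic enzyme that was low in those cells (Eno3). Capitals mark ACGTG and GCGTG on either strand. The printed windows are chr7:46845554-46845803 (plus strand) for Ldha, chr7:138909507-138909756 (minus strand) for Bnip3, chr8:45999851-46000100 (minus strand) for Ankrd37 and chr11:70656926-70657175 (plus strand) for Eno3.
Ldha: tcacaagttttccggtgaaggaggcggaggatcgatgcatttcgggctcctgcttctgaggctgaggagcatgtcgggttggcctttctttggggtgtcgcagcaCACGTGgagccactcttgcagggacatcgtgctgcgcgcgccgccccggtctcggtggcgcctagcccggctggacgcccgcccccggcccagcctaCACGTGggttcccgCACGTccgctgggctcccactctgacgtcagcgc
Bnip3: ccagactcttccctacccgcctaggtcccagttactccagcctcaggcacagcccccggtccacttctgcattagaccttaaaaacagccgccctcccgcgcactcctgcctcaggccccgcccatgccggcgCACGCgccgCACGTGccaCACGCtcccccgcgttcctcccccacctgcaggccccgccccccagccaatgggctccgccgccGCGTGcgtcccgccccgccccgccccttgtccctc
Ankrd37: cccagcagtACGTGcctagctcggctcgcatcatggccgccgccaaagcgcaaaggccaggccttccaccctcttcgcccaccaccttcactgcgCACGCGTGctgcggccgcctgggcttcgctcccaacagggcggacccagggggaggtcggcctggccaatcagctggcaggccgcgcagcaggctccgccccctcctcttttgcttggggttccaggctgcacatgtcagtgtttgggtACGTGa
Eno3: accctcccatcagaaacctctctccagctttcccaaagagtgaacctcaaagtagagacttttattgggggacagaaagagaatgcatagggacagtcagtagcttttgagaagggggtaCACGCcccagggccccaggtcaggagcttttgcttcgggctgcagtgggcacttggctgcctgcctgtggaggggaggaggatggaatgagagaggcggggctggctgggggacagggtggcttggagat
The window of Ldha held 5 matches, all of ACGTG, that of Bnip3 held 5, that of Ankrd37 held 4, and that of Eno3 held 1. Bnip3 and Ankrd37 are among the genes by which the tumor cells were ranked below. Gpi1 and Tpi1 were also high in the same tumor cells, and their promoters held 0 matches. Whether the number of matches goes with the level of a gene was not tested. Ldha had a further promoter in the table, which is not shown.

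The control library held 18538 barcodes with 247105192 unique molecular identifiers (UMIs), and the iIRE library 19433 barcodes with 222153118 UMIs. Of these, 17812 and 18827 passed the quality limits of the study, and 458 barcode sequences occurred in both libraries. Tumor cells were taken as barcodes with at least 3 UMIs of Cdkn2a, a transcript at 1354 and 1452 CPM (UMIs of a gene scaled to a common total of UMIs) in the tumor cells of the control and iIRE libraries. These levels, and the 0 to 17.1 CPM of the host classes, are set by the gates, since host cells had to hold under 300 CPM of Cdkn2a. Many Cdkn2a-positive barcodes under 10000 UMIs (7135 in the control library and 8456 in the iIRE library) carried immune transcripts as well. Summed over the 6 immune markers these held 327 and 362 CPM, against 71.3 to 138 CPM in the control and 55.0 to 125 CPM in the iIRE library in the UMI ranges above that limit. They were left out of the tumor cells by a minimum of 10000 UMIs set after seeing the data. Tumor cells also had to hold under 500 CPM of the immune markers, and with both limits they held 14.7 and 14.6 CPM. This left 7302 control and 6885 iIRE tumor cells with medians of 22038 and 19942 UMIs.

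The tumor cells spread along a range from epithelial-type cells, with keratins, Epcam and Cdh1 (1947 control and 2033 iIRE cells), to mesenchymal-type cells, with collagens, Sparc and Lum (2451 and 2235 cells). Between these ends of the range lay 2904 and 2617 tumor cells that were in neither type, and 480 and 459 cells stood within 0.05 of the epithelial-type limit on the share of epithelial-type markers. Host cells were gated by markers as macrophage-like (893 and 849 cells, with C1qa, Csf1r and Cd68), neutrophil-like (118 and 131 cells, with S100a8, S100a9 and Csf3r) and osteoclast-like (98 and 110 cells, with Acp5, Ctsk and Mmp9). Y-linked transcripts, which no gate used and which mark cells of a male host, were at 88 to 197 CPM in the host classes and at 0.617 and 0.633 CPM in the tumor cells. The neutrophil-like cells were shallow, with medians of 1358 and 1326 UMIs. Of the 739 acinar UMIs in the iIRE neutrophil-like cells, 663 came from 1 barcode.

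The 34 genes were not spread evenly over the classes. For 29 of them the same class had the highest level in both libraries, and that class was the neutrophil-like cells for 15 genes, the epithelial-type tumor cells for 10, the mesenchymal-type tumor cells for 2, and the macrophage-like and osteoclast-like cells for 1 each. This ranking had no minimum of UMIs. Among the 15 were Pfkfb3 (19 and 7 UMIs in neutrophil-like cells), Kdm3a (17 and 13) and Ankrd37 (18 and 22). Some leads were within the counting error. Pfkfb3 in the iIRE library was at 31.3 CPM (12.6 to 64.6) in neutrophil-like and 26.6 CPM in macrophage-like cells. A CPM is a share of all RNA captured in a class, so that it also depends on the rest of the RNA of that class.

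**Figure D1:**
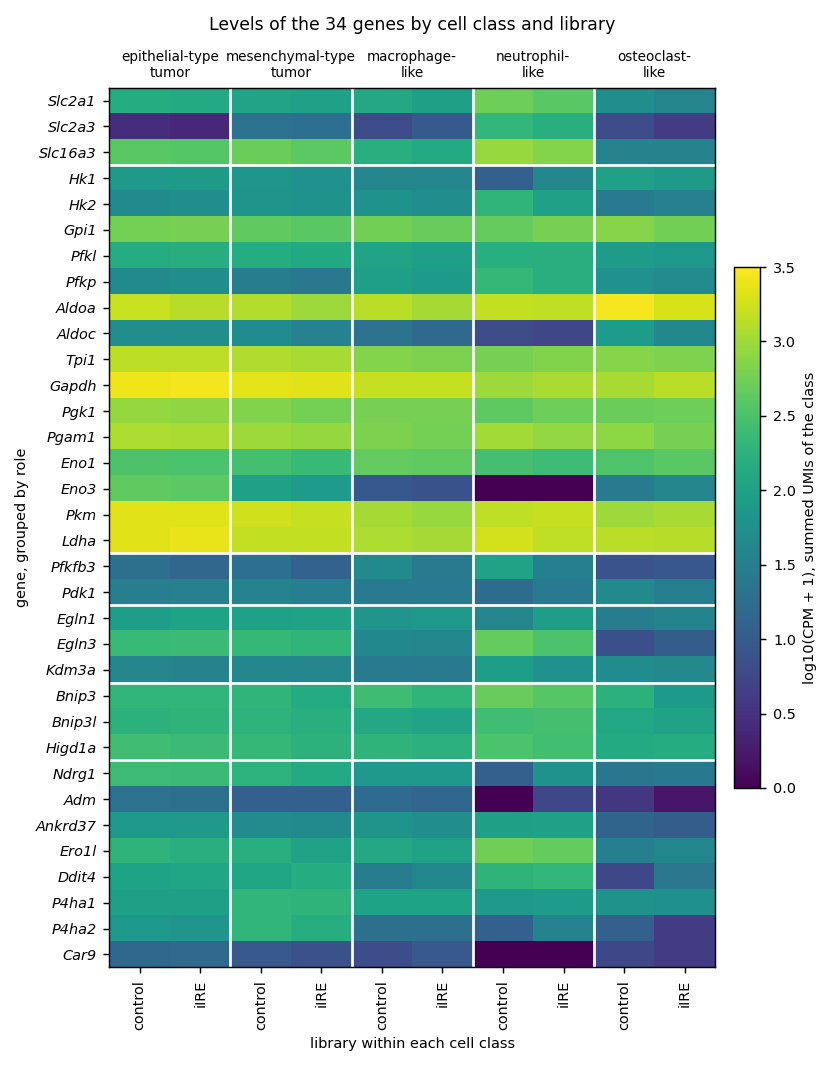
Heat map of the 34 genes (rows, grouped by role) in the 5 cell classes, with the control and iIRE library of each class side by side. Color gives log10(CPM + 1) of the summed UMIs, and the neutrophil-like columns are highest for Slc2a1, Slc2a3, Slc16a3 and Egln3, while Eno3 is highest in the epithelial-type columns.

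Among the transporters, the glucose carrier Slc2a3 (GLUT3) set the neutrophil-like cells apart, at 204 CPM (144 to 280) in the control library and 161 CPM (113 to 223) in the iIRE library. It was at 19.8 and 17.9 CPM in mesenchymal-type tumor cells and at 1.91 and 1.45 CPM in epithelial-type tumor cells, so the ends of the tumor range differed by 10.4-fold and 12.3-fold. Slc2a1 (GLUT1) was more evenly shared by the tumor types, with 145 and 138 CPM in epithelial-type and 110 and 98.9 CPM in mesenchymal-type cells. It too was highest in neutrophil-like cells, at 526 and 407 CPM, as was the lactate exporter Slc16a3 (MCT4) at 907 and 707 CPM. Osteoclast-like cells stood at the low end for Slc16a3, with 35.7 and 35.8 CPM.

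The glycolytic enzymes divided by isoform. Eno3, known as the muscle enolase, was a tumor transcript here, with 435 CPM (430 to 441) and 419 CPM (414 to 425) in epithelial-type cells and 101 and 83.1 CPM in mesenchymal-type cells. Macrophage-like cells held 8.09 and 6.52 CPM of it, which is 2.86% and 2.42% of the tumor level. The Cdkn2a level of the macrophage-like cells was 1.23% and 1.18% of that of the tumor cells, a share that the host gate limits, and their mesenchymal-type list was at 5.85% and 3.19%. A pair of barcodes held 2132 of the 3150 UMIs of that list in the control macrophage-like cells and 716 of the 1298 in the iIRE library. The part of tumor RNA in the Eno3 value was not tested. Neutrophil-like cells had 0 UMIs of Eno3, which allows up to 16.1 and 13.4 CPM (3 UMIs of the total of the class). Eno1, the common enolase, was instead highest in macrophage-like cells (456 and 444 CPM, against 333 and 325 CPM in epithelial-type cells). Like Eno3, it was lower in mesenchymal-type than in epithelial-type cells, at 282 and 236 CPM. A near-identical copy, Eno1b, took 24281 UMIs beside 139465 UMIs of Eno1 over all barcodes, so the Eno1 values are uncertain.

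Pfkp, the platelet isoform of phosphofructokinase, was at 215 and 157 CPM in neutrophil-like and 92.1 and 79.2 CPM in macrophage-like cells, against 45.7 and 51.0 CPM in epithelial-type and 29.3 and 24.4 CPM in mesenchymal-type cells. The liver isoform Pfkl varied less, by 1.89-fold and 2.20-fold from its lowest to its highest class. Aldoa, the main aldolase of most tissues, was highest in osteoclast-like cells at 2793 and 1933 CPM. The enzymes Tpi1, Gapdh, Pgk1, Pgam1, Pkm and Ldha were each highest in epithelial-type tumor cells in both libraries. Ldha, which reduces pyruvate to lactate, was at 2218 and 2390 CPM there and at 1491 and 1511 CPM in mesenchymal-type cells.

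Among the HIF targets outside glycolysis, the collagen prolyl hydroxylases P4ha1 and P4ha2 were the members with their highest level in mesenchymal-type cells. P4ha2 was at 202 and 151 CPM there against 73.3 and 66.3 CPM in epithelial-type cells, a ratio of 2.75 and 2.28. P4ha1 was at 203 and 187 CPM against 97.3 and 96.1 CPM. Egln3, an oxygen-sensing prolyl hydroxylase, was at 472 and 318 CPM in neutrophil-like cells, 234 and 244 CPM in epithelial-type cells and only 6.18 and 9.71 CPM in osteoclast-like cells. Car9, the carbonic anhydrase that is a widely used hypoxia marker, was at 14.1 and 14.9 CPM in epithelial-type and 8.55 and 6.49 CPM in mesenchymal-type cells, and had 0 UMIs in neutrophil-like cells, with the same upper limits as for Eno3.

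In epithelial-type tumor cells the 34 genes were at closely similar levels in both libraries when cells of all depths were summed. Within ranges of depth the libraries were less alike, as described below for a sum of HIF targets. A gene with at least 50 UMIs over both libraries was called higher or lower when (CPM + 10) differed by at least 1.2-fold. By this rule 1 member was lower (of all 12937 genes tested, 0.727% were) and 0 were higher (of all genes, 0.912%), and 33 were under the fold. Among the 8139 genes at 10 CPM or more, of which 33 were members, the shares of all genes were 1.04% lower and 1.07% higher. The gene called was Pfkfb3, whose enzyme makes the fructose bisphosphate that activates phosphofructokinase, at 18.3 CPM in the control and 13.4 CPM in the iIRE library (log2 ratio of CPM -0.45, -0.59 to -0.31). The median log2 ratio of (CPM + 10) was -0.023 over the members and 0.003 over all genes tested. Aldoa came close to the limit, at 1606 and 1349 CPM (log2 ratio -0.25, -0.27 to -0.24).

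In mesenchymal-type tumor cells 9 members were lower in the iIRE library (of all 12886 genes tested, 1.27% were lower) and 1 was higher (of all genes, 1.31%). All 10 were among the 33 members at 10 CPM or more, a level at which 1.67% of all genes were lower and 1.69% higher. The median log2 ratio was -0.158 over the members and 0.002 over all genes, and 31 of the 34 members were below 0. The 3 mitochondrial genes were all below 0, and 2 of them passed the fold. Bnip3, a receptor for the removal of mitochondria, was at 195 CPM in the control and 144 CPM in the iIRE library (log2 ratio -0.44, -0.49 to -0.39), and Higd1a, a protein of the respiratory chain that responds to hypoxia, at 216 and 178 CPM (-0.28, -0.32 to -0.24). The relative Bnip3l stayed under the fold at 184 and 162 CPM.

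Of the 8 other HIF targets, 3 were lower in the mesenchymal-type cells of the iIRE library. Ero1l, the oxidase that makes disulfide bonds in the endoplasmic reticulum, had the lowest ratio of the 34 genes in this class, at 158 CPM (155 to 162) in the control and 102 CPM (99.2 to 105) in the iIRE library (log2 ratio -0.63, -0.69 to -0.58). In epithelial-type cells it was at 188 and 162 CPM (-0.22, -0.26 to -0.18), so the counting intervals of the ratios of the tumor types did not overlap. P4ha2 was at 202 and 151 CPM in mesenchymal-type cells (-0.41, -0.46 to -0.37). Ndrg1, a stress-responsive gene that is a standard HIF target, was at 180 and 136 CPM (-0.40, -0.45 to -0.35) there and at 247 and 239 CPM in epithelial-type cells (-0.05, -0.08 to -0.01). Whether the libraries differed by unequal amounts in the tumor types could not be tested with 1 library a group.

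Of the 15 glycolytic enzymes, 2 were lower in the mesenchymal-type cells and 13 under the fold, and the log2 ratio was below 0 for 14. Aldoa was at 1235 and 968 CPM (-0.35, -0.37 to -0.33), and Aldoc, the aldolase known from brain, at 49.4 and 34.5 CPM (-0.52, -0.61 to -0.42). Ldha, in contrast, was at 1491 and 1511 CPM (0.02, 0.00 to 0.03). Slc16a3 was at 520 and 413 CPM (-0.33, -0.36 to -0.30) and Pfkfb3 at 17.7 and 11.8 CPM (-0.59, -0.75 to -0.43). The only member that was higher in this class was Ddit4, an inhibitor of mTORC1 that HIF and other stress factors induce, at 114 CPM in the control and 146 CPM in the iIRE library (0.36, 0.31 to 0.41).

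**Figure D2:**
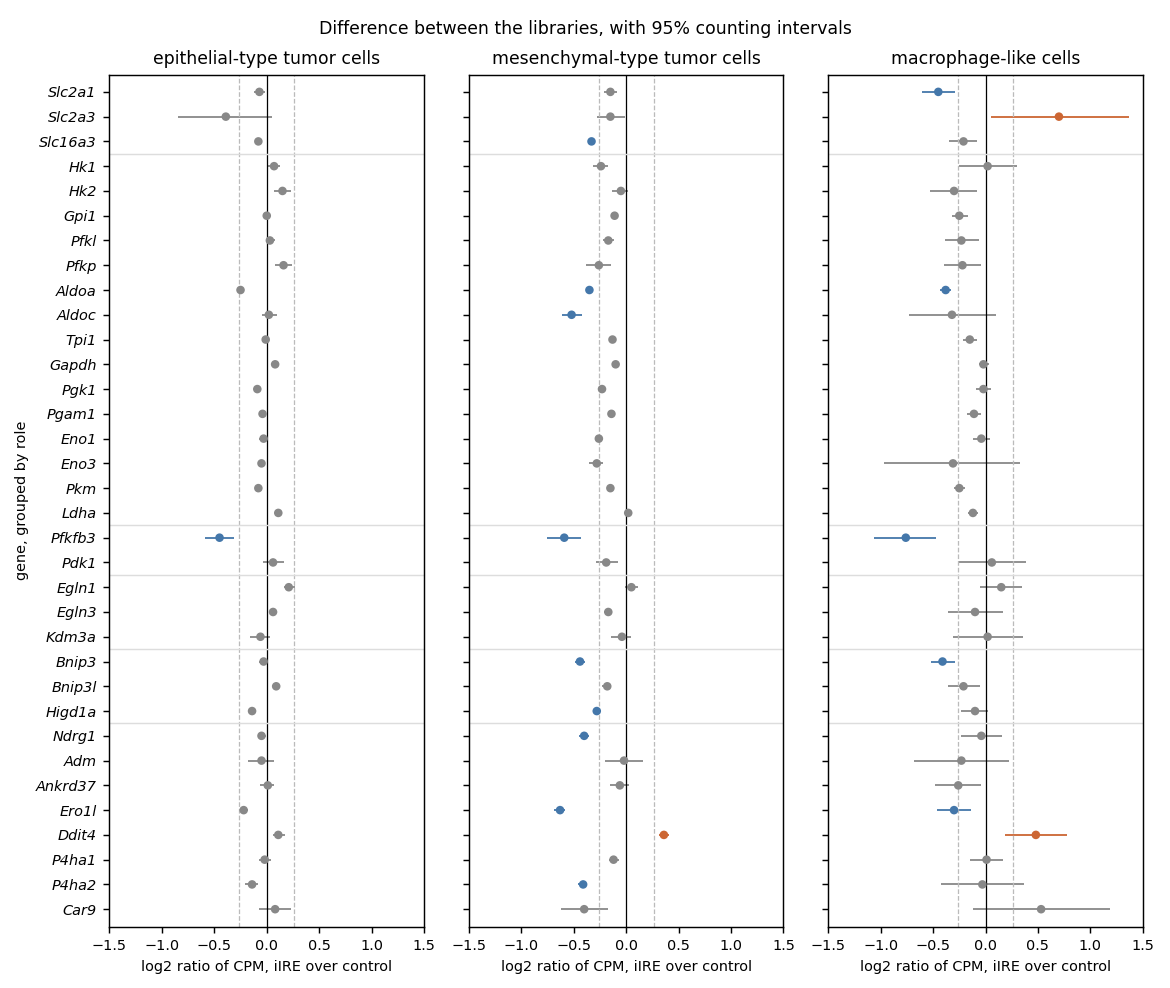
Log2 ratio of CPM, iIRE over control, of the 34 genes (rows, grouped by role) in epithelial-type, mesenchymal-type and macrophage-like cells, with bars for the 95% counting interval. Blue and orange points were called lower and higher, grey points were under the fold, and dashed lines mark 1.2-fold. Calls were made on (CPM + 10), so a gene at a low level can lie past a dashed line in grey. Most points of the mesenchymal-type panel lie left of 0.

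Over all tumor cells, those between the types included, 4 members were lower (of all 15079 genes tested, 0.597% were) and 0 were higher (of all genes, 0.577%). The 4 were Ero1l (171.7 and 123 CPM), P4ha2 (123 and 95.6 CPM), Aldoa (1428 and 1160 CPM) and Pfkfb3 (17.4 and 11.96 CPM). Gapdh was nearly level at 2431 and 2423 CPM, and Ldha was at 1854 and 1967 CPM. Of all genes at 10 CPM or more, 1.02% were lower and 0.814% higher in all tumor cells.

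Depth and cell division also differed between the libraries. Of the epithelial-type cells, 39.2% of the control but 26.6% of the iIRE library had at least 30000 UMIs, and the summed level of 18 cell cycle genes in mesenchymal-type cells was 1141 CPM in the control and 1422 CPM in the iIRE library. A HIF target index was formed from Bnip3, Ndrg1, Adm, Ankrd37, Egln3, Car9, P4ha1, P4ha2 and Pdk1. In mesenchymal-type cells the index was at 1097 CPM in the control and 904 CPM in the iIRE library (log2 ratio -0.28). It was lower in the iIRE library in each of the 4 UMI ranges examined, with log2 ratios of -0.22, -0.42, -0.32 and -0.63 from the shallowest to the deepest, and among cells with under 500 CPM (-0.25) and at least 500 CPM (-0.22) of the cell cycle list.

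In epithelial-type cells the index was at 995 and 987 CPM, but the UMI ranges did not all point one way. The log2 ratio was 0.13 between 10000 and 15000 UMIs and -0.23 in each of the 3 deeper ranges. In both libraries the index fell steeply with depth, from 1894 to 686 CPM in the control and from 2076 to 583 CPM in the iIRE library between the shallowest and the deepest range. The part of depth in the level over all epithelial-type cells was not tested.

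**Figure D3:**
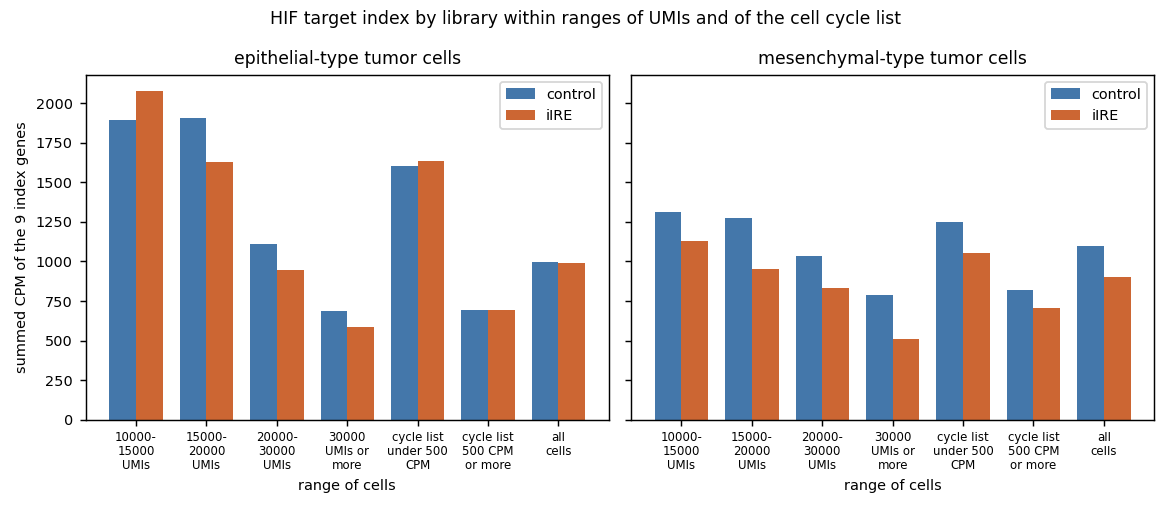
Summed CPM of the 9 index genes in the control (blue) and iIRE (orange) library, within 4 ranges of UMIs per cell, within 2 ranges of the cell cycle list and over all cells, for epithelial-type (left) and mesenchymal-type (right) tumor cells. The orange bar is the lower of each pair in every range of mesenchymal-type cells, and the higher at 10000 to 15000 UMIs in epithelial-type cells.

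In macrophage-like cells 5 members were lower in the iIRE library (of all 9739 genes tested, 4.62% were lower) and 2 were higher (of all genes, 7.61%). At 10 CPM or more these were 5 and 1 of 31 members, beside 4.49% and 7.69% of all genes. The median log2 ratio was -0.126 over the members and 0.032 over all genes, with 26 of the 34 below 0. Slc2a1 was at 130 CPM (122 to 139) in the control and 95.5 CPM (87.5 to 104) in the iIRE library, a log2 ratio of -0.45 (-0.61 to -0.29). Pfkfb3 was at 45.2 and 26.6 CPM (-0.76, -1.06 to -0.47), and Aldoa at 1374 and 1055 CPM (-0.38, -0.43 to -0.33). The other members called lower were Bnip3, at 257 and 194 CPM, and Ero1l, at 128 and 104 CPM. Ddit4 was higher, at 28.2 CPM in the control and 39.5 CPM in the iIRE library (0.48, 0.19 to 0.78). The other member called higher was Slc2a3, which had few UMIs (36 and 48). The cell cycle list of the macrophage-like cells was at 1067 and 1493 CPM. Within cells under 500 CPM of that list the log2 ratio of the index was -0.17, and above it 0.16, so the direction of the index was not the same in these ranges.

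The neutrophil-like and osteoclast-like gates held few UMIs, and a large part of all genes passed the fold there. In neutrophil-like cells 21 members had enough UMIs, of which 8 were lower (of all 1118 genes tested, 26.5% were) and 2 higher (of all genes, 28.2%). All 3 transporters were among the 8, but the counting interval included 0 for Slc2a1 (log2 ratio -0.37, -0.80 to 0.06) and Slc2a3 (-0.34, -1.04 to 0.36). For Slc16a3 it did not (-0.36, -0.68 to -0.04). Hk2, the inducible hexokinase, was at 193 and 98.5 CPM (log2 ratio -0.97, -1.81 to -0.17), Egln3 at 472 and 318 CPM (-0.57, -1.04 to -0.10) and Ldha at 1825 and 1464 CPM (-0.32, -0.54 to -0.09). Scaling with TMM factors moved all genes of this class by 0.138 on the log2 scale, and the shift was at most 0.063 in the other classes.

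In osteoclast-like cells 26 members had enough UMIs, of which 8 were lower (of all 6348 genes tested, 14.6% were) and 3 higher (of all genes, 22.2%). Bnip3 was at 176 CPM (156 to 200) in the control and 80.1 CPM (67.0 to 94.99) in the iIRE library, a log2 ratio of -1.14 (-1.45 to -0.83). Aldoa was at 2793 and 1933 CPM (-0.53, -0.60 to -0.46) and Aldoc at 82.4 and 41.9 CPM (-0.98, -1.43 to -0.54). Gapdh went the other way, at 1085 and 1387 CPM (0.35, 0.26 to 0.45). The cell cycle list was at 488 and 1578 CPM in these cells, and its part in these differences was not tested.

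A further list of 52 HIF and glycolysis genes, 7 of them regulators, served as the surroundings of the 34. In mesenchymal-type cells 43 had enough UMIs, of which 2 were lower (of all genes tested, 1.27%) and 0 higher (1.31%), with a median log2 ratio of -0.037. In epithelial-type cells 0 of 44 were lower (of all genes, 0.727%) and 0 higher (0.912%), and over all tumor cells 1 of 47 was lower (of all genes, 0.597%). In macrophage-like cells 6 of 37 were lower (of all genes, 4.62%) and 3 higher (7.61%). Hif1a, the oxygen-labile subunit itself, was at 204 CPM in the control and 218 CPM in the iIRE library over all tumor cells, at 174 and 164 CPM in macrophage-like cells and at 36.4 and 42.5 CPM in osteoclast-like cells. Epas1 (HIF-2 alpha) was nearly absent from tumor cells, at 3.32 and 3.49 CPM. Transcript levels of these subunits do not report the protein, which is set mainly by degradation.

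Vegfa, the angiogenic factor and a HIF target, was at 254 and 222 CPM in tumor cells. It was lower by the fold in macrophage-like cells (175 and 137 CPM) and in osteoclast-like cells (181 and 72.2 CPM). Hmox1, the heme oxygenase, which also responds to oxidative stress and heme, was at 777 CPM in the control and 364 CPM in the iIRE library in macrophage-like cells (log2 ratio of (CPM + 10) -1.07) and at 349 and 179 CPM in neutrophil-like cells (-0.92). Fam162a, a mitochondrial protein encoded by a HIF target gene, was at 225 and 372 CPM in neutrophil-like cells (0.70) and did not pass the fold in any other class. It was at 680 and 628 CPM in all tumor cells. The mesenchymal-type list of the neutrophil-like cells was at 225 and 895 CPM, and 2 iIRE barcodes held 166 of its 200 UMIs there. The part of tumor RNA in the Fam162a value was not tested, and 28.2% of all genes were called higher in that class. Bnip3 and Vegfa were thus the genes that differed most in osteoclast-like cells among the named genes with enough UMIs.

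Among single tumor cells many of the members varied together. After each cell was thinned to 5000 UMIs, Pearson's r between the HIF target index and the sum of the 15 glycolytic enzymes, which share no gene, was 0.62 over 7302 control cells and 0.64 over 6885 iIRE cells. These r values are descriptions over cells of 1 library, which share that library and are not replicates. The index had an r of -0.23 and -0.24 with the total UMIs of a cell, -0.25 and -0.23 with the cell cycle list, -0.11 and -0.08 with the mitochondrial share, and -0.03 and 0.04 with the share of epithelial-type markers. Of the decile of cells with the highest index, 31.8% of the control were epithelial-type and 33.1% mesenchymal-type, and in the iIRE library these shares were 39.4% and 28.6%.

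Of the 561 pairs of members, 242 had an r of at least 0.2 in both libraries and 110 of at least 0.3, of which 36 were pairs of glycolytic enzymes. Gapdh with Pgk1 stood at the top, at 0.60 and 0.61, and Gapdh with Bnip3 at 0.56 and 0.57 joined an enzyme of glycolysis to a gene of mitophagy. Outside the index, Gapdh (0.59 and 0.58), Ero1l (0.57 and 0.56) and Pgk1 (0.54 and 0.54) had the highest r with it. In 28 pairs r was below 0 in both libraries. Eno3 had an r of -0.20 and -0.14 with the index, while r with the index was above 0 for the other enzymes. With single enzymes its r went both ways, such as 0.15 and 0.17 with Ldha and -0.09 and -0.08 with Hk2. Its r with the index was -0.31 and -0.28 within epithelial-type cells and -0.10 and -0.04 within mesenchymal-type cells. Slc2a3, which few tumor cells contained, had an r of 0.09 and 0.07.

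**Figure D4:**
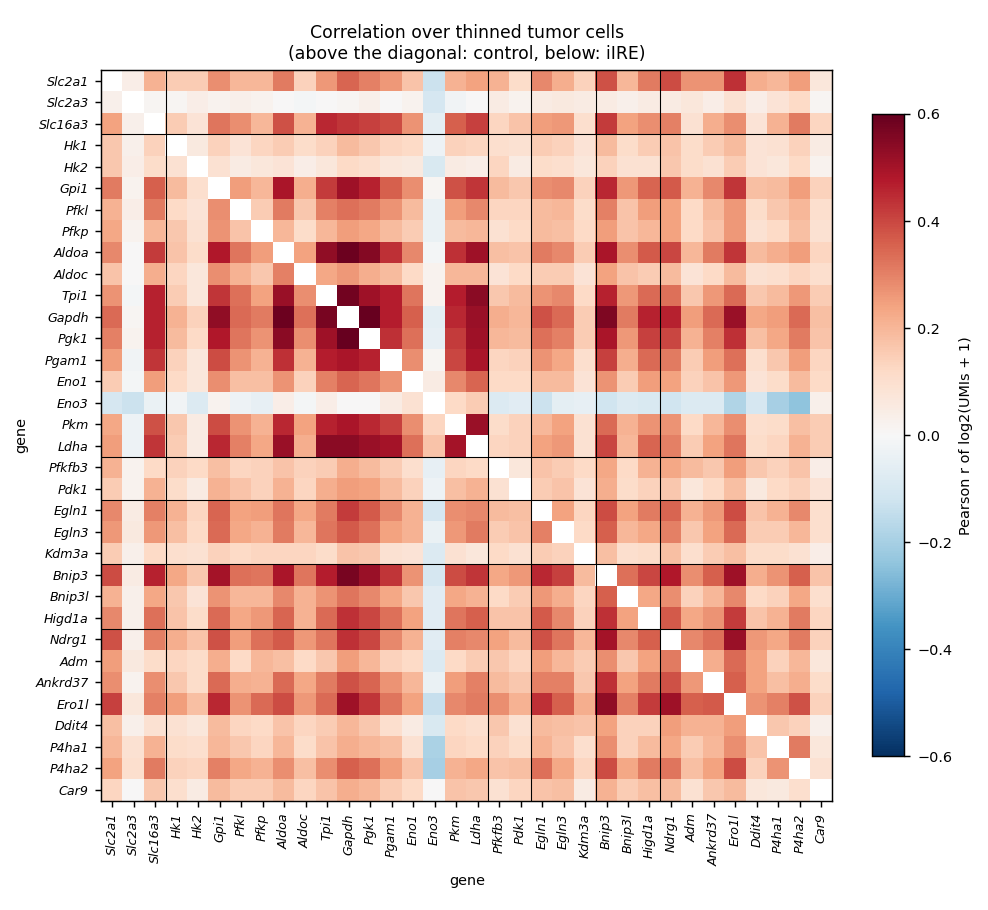
Pearson's r of log2(UMIs + 1) for each pair of the 34 genes over tumor cells thinned to 5000 UMIs, with the control library above and the iIRE library below the diagonal. Red pairs rise together, and the row of Eno3 is the blue row. Gapdh and Pgk1 stand at 0.60 above and 0.61 below the diagonal.

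Among 7651 genes found in at least 5% of tumor cells, the 10 that were not members and followed the index most closely in both libraries were Fam162a (r of 0.51 and 0.56), Bsg (0.51 and 0.50), Vegfa (0.54 and 0.48), Mif (0.46 and 0.45), Mt1 (0.36 and 0.37), Cdkn1a, Pgm1, Hilpda, Mgarp and Nrn1. Bsg encodes basigin, the chaperone that brings monocarboxylate transporters such as MCT4 to the membrane, and Mt1 a metallothionein. Of the 10, Fam162a, Vegfa, Mif and Pgm1 were on the list of 52. At the opposite end stood Nme2 (-0.35 and -0.36), Pfn1 (-0.36 and -0.34) and Ndufa4 (-0.35 and -0.34), the last of which encodes a subunit of cytochrome oxidase.

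The tumor cells were then ordered by the thinned index and cut into deciles. The index itself, which set the order, was at 270 CPM in the lowest and 3735 CPM in the highest decile of the control library and at 246 and 3717 CPM in the iIRE library. The 15 glycolytic enzymes summed to 8341 and 22301 CPM in the control, a fold of 2.67, and to 8012 and 22899 CPM in the iIRE library, a fold of 2.86.

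The members outside the index spread widely in their folds between these deciles. Ero1l was at 31.2 CPM in the lowest and 899 CPM in the highest decile of the control (28.8-fold) and at 20.4 and 800 CPM in the iIRE library (39.2-fold). Pfkfb3 differed by 18.8-fold and 16.1-fold, Egln1 by 8.78-fold and 9.57-fold, Slc2a1 by 8.36-fold and 7.86-fold, and Slc16a3 by 4.86-fold and 5.49-fold. The enzymes of glycolysis were spread as well, from Pfkp at 8.06-fold (7.13 to 9.12) and 12.55-fold (10.8 to 14.6), Aldoc at 6.15-fold (5.53 to 6.86) and 11.01-fold (9.56 to 12.7) and Pgk1 at 4.75-fold and 5.10-fold to Ldha at 2.10-fold and 2.26-fold and Pkm at 1.75-fold and 1.95-fold. Pfkfb3 and Slc2a1 were among the members with a smaller fold in the iIRE library, and their counting intervals overlapped. Ero1l (26.6 to 31.3 and 35.2 to 43.9), Pfkp and Aldoc were among those with a larger fold there, with counting intervals that did not overlap. The same held for other members, such as Gpi1 and Pkm, and the share of all genes with such a difference is not given. The deciles were cut in each library on its own. The lowest decile held cells with 0 to 1 UMIs of the thinned index in the control and only cells with 0 in the iIRE library. The part of these unlike limits in the folds was not tested. Whether the folds differed between the groups could not be tested with 1 library a group.

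Eno3 had the reverse order, at 345 and 135 CPM in the control (0.391-fold) and 322 and 133 CPM in the iIRE library (0.414-fold). Hif1a transcript was nearly level, at 171 and 211 CPM in the control (1.23-fold) and 198 and 222 CPM in the iIRE library (1.12-fold), while Vegfa was 10.7-fold and 9.09-fold higher in the highest decile. The cell cycle list went from 2334 to 797 CPM in the control and from 2427 to 1025 CPM in the iIRE library. The median depth went from 24931 to 17901 UMIs and from 22635 to 16134 UMIs. The part of depth and of cell division in these steps was not tested. The macrophage list, in contrast, was at 17.3 CPM in the lowest and 22.0 CPM in the highest decile of the control and at 18.2 and 21.3 CPM in the iIRE library.

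**Figure D5:**
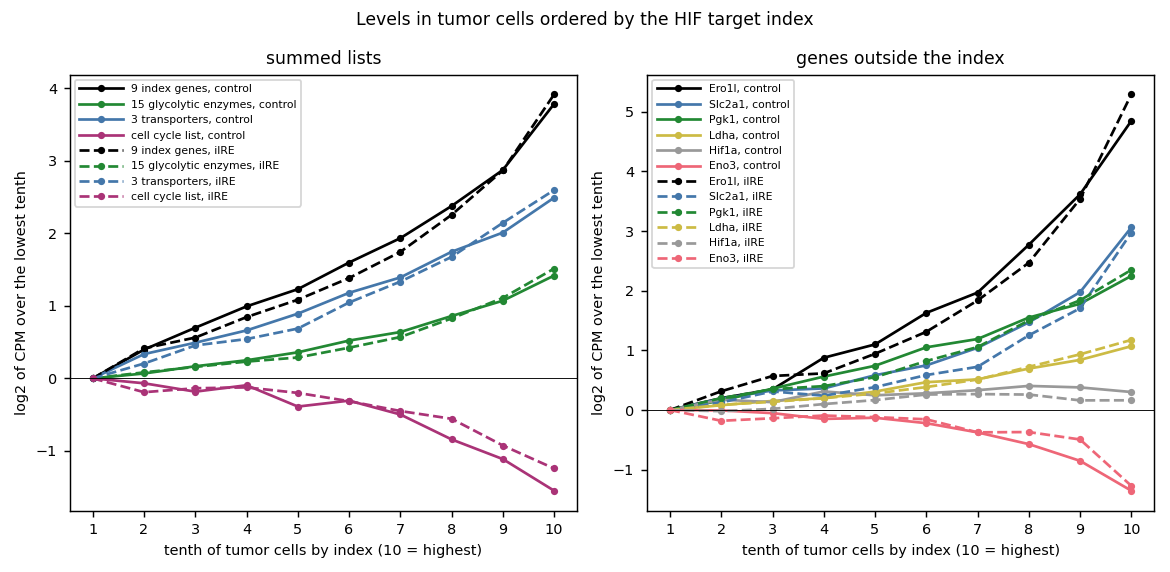
Log2 of the CPM in each decile of tumor cells, ordered by the HIF target index, over the CPM of the lowest decile. The left panel shows the summed lists and the right panel 6 genes outside the index, with solid lines for control and dashed lines for iIRE. Ero1l climbs most, Hif1a is nearly flat and Eno3 descends to 0.391-fold in the control and 0.414-fold in iIRE.

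A smaller share of the iIRE tumor cells had a high index. A thinned index of at least 13 UMIs, the limit of the highest decile in the control library, was reached by 11.4% (10.6 to 12.1, exact binomial interval) of control and 9.64% (8.96 to 10.4) of iIRE tumor cells. Among epithelial-type cells the shares were 13.4% and 12.9%, and among mesenchymal-type cells 11.3% (10.1 to 12.7) and 8.32% (7.21 to 9.54). The counting intervals of the shares over all tumor cells did not overlap, nor did those of the mesenchymal-type shares. These intervals treat the cells of a library as independent and do not measure the spread between tumors. Whether the shares differed between the groups could therefore not be tested.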

How the data were processed

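Per the labels and the methods of the study, the authors prepared 5′ scRNA-seq libraries (10x Genomics), aligned the reads to mm10 with Cell Ranger and STAR, and deposited 1 matrix of raw UMI counts per gene and barcode for both libraries. The header of the deposited matrix names Cell Ranger 7.0.1, which is not the version the methods give. Barcodes ending in 1 and 2 were assigned to the control and the iIRE library from the library names in the labels, which do not state the endings themselves. The mean UMIs per passing barcode were 13723 for ending 1 and 11715 for ending 2, and the T and NK list was at 8.17 and 2.41 CPM. The order of the mean UMIs is opposite to the order given for the groups by the study, while the order of the barcode numbers and of the T cell content is the same as there. The study also counted more macrophages and fewer acinar cells in the iIRE group. Here, by other gates, the macrophage-like cells numbered 893 for ending 1 and 849 for ending 2. The acinar list was at 218 and 276 CPM over the passing barcodes. These orders are opposite to those of the study as well. The assignment is therefore uncertain. The matrix holds barcodes that fail the filters of the study. Barcodes were kept with at least 200 genes, 1000 UMIs and 0.7 log10 genes per log10 UMI, and at most 5% mitochondrial and 5% hemoglobin UMIs. No doublet caller was run. The gates left out barcodes with markers of a second class instead. Tumor cells had at least 3 Cdkn2a UMIs, 10000 UMIs, under 500 CPM of immune and under 3000 CPM of acinar markers. In epithelial-type and mesenchymal-type cells, epithelial-type markers made up at least 0.5 and at most 0.1 of the UMIs of both tumor type lists. Host cells had under 300 CPM of Cdkn2a, at least 1000 CPM of immune markers, at least 4 of 8 class markers, and at least 3000 CPM (macrophage-like and neutrophil-like) or 5000 CPM (osteoclast-like) of their list, 3 times that of the other lists.

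UMIs were summed by class and library. Genes with at least 50 UMIs over both libraries were called at 1.2-fold of (CPM + 10). Levels have exact Poisson intervals and ratios exact conditional binomial intervals, at 95%, which cover counting error only, since each group had 1 library. The 34 members, the gene lists and the gates were chosen with earlier results of these data known. The text names all 34 members, Hif1a, Epas1, Vegfa and listed genes past 1.5-fold, and the 10 closest followers of the index. The calculations were tested on simulated data. Python 3.11.15, numpy 2.4.6, scipy 1.17.1, pandas 2.3.3 and, for TMM factors, edgeR 4.0.16 were used. Settings for depth, division and host purity were added after seeing the data.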

Additional observations from a re-analysis of the deposited data

Results flagged for a closer look

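For 2 members the calls went in opposite directions in 2 host classes. Slc2a3 was higher in the iIRE library in macrophage-like cells (log2 ratio of (CPM + 10) of 0.29, from 36 and 48 UMIs) and lower in neutrophil-like cells (-0.32, from 38 and 36 UMIs). Gpi1, which isomerizes glucose 6-phosphate, was higher in neutrophil-like cells (0.35, from 87 and 134 UMIs) and lower in osteoclast-like cells (-0.34, from 1051 and 935 UMIs). In neutrophil-like cells the counting interval of the log2 ratio of CPM included 0 for both Slc2a3 (-1.04 to 0.36) and Gpi1 (-0.04 to 0.77). With TMM factors 0 members were called higher in neutrophil-like cells. The opposite directions are therefore not firm. The differences between these classes were not tested, since each group had 1 library.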

How the results depend on the processing

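With 1 library per group, depth limits every comparison, and the neutrophil-like and osteoclast-like counts, whose genes often held under 200 UMIs, are the least firm. No paired analysis was possible because each group had 1 library, and no replicate could be left out. The median log2 ratio of the members stayed below 0 under every setting run in all tumor cells, mesenchymal-type (-0.214 to -0.140), macrophage-like (-0.166 to -0.097) and osteoclast-like cells, while it reached 0.006 in epithelial-type and 0.000 in neutrophil-like cells. Members called are given here as lower or higher in the iIRE library. The shares of all genes past the fold are not given for these settings. The counts that follow therefore cannot be set against a background. At a fold of 1.5 the number lower was 0 in all tumor cells, 0 in epithelial-type, 1 in mesenchymal-type, 1 in macrophage-like, 1 in neutrophil-like and 2 in osteoclast-like cells, and the number higher was 0 in each class. With the mean of CPM per cell, 0 were lower in epithelial-type cells, 1 was higher in macrophage-like and 1 in neutrophil-like cells, the median in all tumor cells was -0.058, and Egln1 in osteoclast-like cells reversed from 0.30 to -0.03. Among tumor cells with at least 15000 UMIs, a setting added after seeing the data like the others on UMI ranges, 7 members were lower in all tumor cells, 3 in epithelial-type and 14 in mesenchymal-type cells. At 20000 UMIs or more these counts were 8, 3 and 15, with a median of -0.138 in all tumor cells. Between 10000 and 20000 UMIs, 2 were lower in epithelial-type and 0 higher in mesenchymal-type cells. Requiring 1 more marker in each gate gave 0 lower in epithelial-type cells, and 1 higher in neutrophil-like and 7 in osteoclast-like cells. Adding 1 CPM gave 8 lower in macrophage-like and 5 higher in osteoclast-like cells. TMM factors gave 9 lower in macrophage-like and 0 higher in neutrophil-like cells. A minimum of 200 UMIs left 1 higher in macrophage-like cells, 1 higher and 2 lower in neutrophil-like cells, and 1 higher and 5 lower in osteoclast-like cells, since fewer genes were tested. With no minimum, 8 were higher in neutrophil-like and 5 in osteoclast-like cells. Host cells without a Cdkn2a UMI had 1 member higher in macrophage-like and 1 in neutrophil-like cells. Without the 10% of cells with the most UMIs, 1 was higher and 10 were lower in macrophage-like cells, 0 were higher and 5 lower in neutrophil-like cells, and Pgk1 in neutrophil-like cells reversed from 0.29 to -0.09. Cells under 500 CPM of the cell cycle list had 0 higher in neutrophil-like and 5 in osteoclast-like cells. The r of the index with the glycolytic sum was 0.536 and 0.543 (control and iIRE) when thinned to 2000 UMIs, 0.688 and 0.686 on all UMIs and 0.571 and 0.574 with tumor cells from 5000 UMIs, and 0.617 in iIRE from 15000 UMIs. The fold of the glycolytic sum was 2.32 and 2.47 when thinned to 2000 UMIs, 2.32 and 2.42 over 5 groups of cells in place of 10, 2.76 in epithelial-type control cells, and 2.92 and 3.104 in mesenchymal-type cells. Except by construction where fewer genes or cells entered, the cause was not tested.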

Other observations

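Macrophage-like cells also differed among themselves along the HIF target index. After thinning to 3000 UMIs, which left out 99 control and 105 iIRE cells, the 264 control cells with the highest index held 13041 CPM of the glycolytic enzymes against 5426 CPM in the 265 with the lowest (2.40-fold). In the iIRE library the 248 highest cells held 11603 CPM against 5207 CPM in the 248 lowest (2.23-fold). Slc2a1 differed by 6.54-fold and 4.85-fold, Ero1l by 7.80-fold and 4.67-fold, and Vegfa by 3.94-fold and 5.04-fold between these groups of cells. Hif1a differed by 1.19-fold and 1.43-fold. The mesenchymal-type list differed as well, by 5.46-fold and 2.06-fold, and over all macrophage-like cells a pair of barcodes held 2132 of its 3150 UMIs in the control and 716 of its 1298 in the iIRE library. Cdkn2a was at 22.3 and 14.9 CPM in the control and 14.4 and 22.1 CPM in the iIRE library, and the part of tumor RNA in the steps was not tested.

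The Cdkn2a-positive barcodes under 10000 UMIs held 11182 CPM of glycolytic enzymes in the control and 10149 CPM in the iIRE library, a log2 ratio of -0.14. Their HIF target index was nearly level, at 1196 and 1164 CPM (-0.04), against 1026 and 913 CPM (-0.17) in all tumor cells. Ndrg1 had a log2 ratio of 0.08 in these barcodes and -0.25 in all tumor cells. The lower index of the iIRE tumor cells was thus nearly absent below the UMI minimum, which was set after seeing the data. These barcodes held Y-linked transcripts at 8.61 and 8.80 CPM, above the 0.617 and 0.633 CPM of the tumor cells. The part of host RNA in their values was not tested.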
